A study of Mus musculus with 8 samples.

Results

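The comparison described here sets 2 K14 ablation libraries against 2 K14 control libraries of sorted mouse epidermal cells. They are the 4 K14 libraries of an 8-library series, chosen by their labels and not by any measured value, and every expressed gene was compared. The series was made to look for the mechanism behind clonal expansion and tissue fluidity when the skin is repaired, and it holds RNA sequencing of epithelial cells sorted from skin epidermis. The control libraries carry the genotype WT and the ablation libraries the genotype Basal lineage ablation. The labels used here do not state the driver and agent of the ablation, the time after it, the sorting gate, or the strain, age and sex of the mice. Nor do they state what K14 names, which could be a promoter, the cells sorted or the cells ablated. The other 4 libraries, Lrig1 control (WT) and Lrig1 ablation (Basal lineage ablation), entered the same fit, and their own ablation effect is given below for genes named in the K14 comparison.

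Keratin 14 pairs with keratin 5 to form the filaments of the basal layer of the epidermis, the layer that divides and is anchored by integrins to the basement membrane. Cells that leave it change to keratins 1 and 10 as they differentiate. Keratinocytes next to a wound are known to make keratins 6, 16 and 17, to remodel their matrix and actin, and to signal through the EGF receptor and its ligands.

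The libraries held 8268919 and 8575279 reads in K14 control 1 and 2, and 11654135 and 7767292 reads in K14 ablation 1 and 2. Levels are normalised read counts, that is reads divided by a factor for each library, and 3 reads correspond to a value between 2.12 and 3.22 in these libraries. They are not divided by gene length, so levels are compared between libraries and not between genes. Differences are on the log2(value + 1) scale with their standard error (SE), n = 2 libraries in each group. The SE and p-value of a gene use 1 estimate of its spread from all 8 libraries of the fit, the Lrig1 ones included. The labels do not say that a group's libraries come from separate mice. A p-value here therefore measures no more than how far these 8 libraries spread, which may be technical.

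The control libraries lay close together and the ablation libraries did not. Of 9562 tested genes with a mean value of at least 100, 0 differed more than 2-fold between the control libraries and 441 (4.61%) between the ablation libraries, 354 of them with the higher value in ablation 2. The female transcript Xist and the Y-linked genes Ddx3y, Uty, Eif2s3y and Kdm5d separate them further. Xist was at 22492 and 23645 in control and 25229.8 and 6948 in ablation 1 and 2. Ddx3y was at 519 and 389.9 in control and 0.708 and 759 in ablation, where ablation 1 held 1 read. Both control libraries and ablation 2 therefore held female and male transcripts, while ablation 1 held Xist with at most 1 read of each Y-linked gene. The labels do not say whether mice were pooled, and the part that the sex of the mice plays in any difference below was not tested. Of the 34 genes past the threshold, 0 lie on X or Y, which hold 2.83% of tested genes. With so few genes, nothing is read from that count.

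The basal markers were abundant in all 4 libraries. Krt5, the partner of Krt14, was at 62722 and 60786 in control and 80925 and 80623 in ablation, and Krt14 at 61325 and 59192 in control and 79645 and 75873 in ablation. Trp63, the master regulator of stratified epithelia, and Col17a1, a hemidesmosome collagen, were likewise high. Trp63 was at 9221 and 9467 in control and 8217 and 8488 in ablation, and Col17a1 at 28339 and 28498 in control and 24281 and 23083 in ablation. None of these 4 passed the threshold, with adjusted p (limma) between 0.727 and 0.799. The suprabasal keratins were also present at high values: Krt10 was at 46312 and 42573 in control and 33301 and 25807 in ablation. In bulk samples, fewer cells of a type and less RNA per cell cannot be told apart.

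At an adjusted p of 0.05 (limma over 18140 tested genes), 18 genes rose (0.0992% of tested genes) and 16 fell (0.0882%), 34 in all (0.187%). On recovered reads, edgeR called 32 genes (0.176%) and DESeq2 221 (1.22%). All 34 moved the same way in both ablation libraries, and none of their ablation values overlapped the control values. For comparison, both ablation libraries lay above both control libraries in 27.4% of tested genes and below them in 25.7%. The number of calls rested on which libraries entered the fit and how their spread was modelled. With the 4 K14 libraries alone it was 0 (3452 genes at an unadjusted p under 0.05, limma), and without a variance trend it was 0 (2147). Leaving out 1 library at a time, it was 16 without ablation 1, 262 without ablation 2, and 685 and 740 without Lrig1 ablation 1 and 2. It was 0 when any 1 of the 4 control libraries was left out (835 to 1678 genes at an unadjusted p under 0.05, limma). The direction of all 34 was the same in each of these fits. That was fixed in advance, since none of their ablation values overlapped the control values, and selection by p favours such genes. Genes just inside the threshold were Itga4, Slc38a4 and Muc3a, at an adjusted p of 0.0466, 0.0466 and 0.0478. Just outside were Basp1, Vim, Isyna1, Wsb1 and B4galnt1, all at 0.0566.

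**Figure D1:**
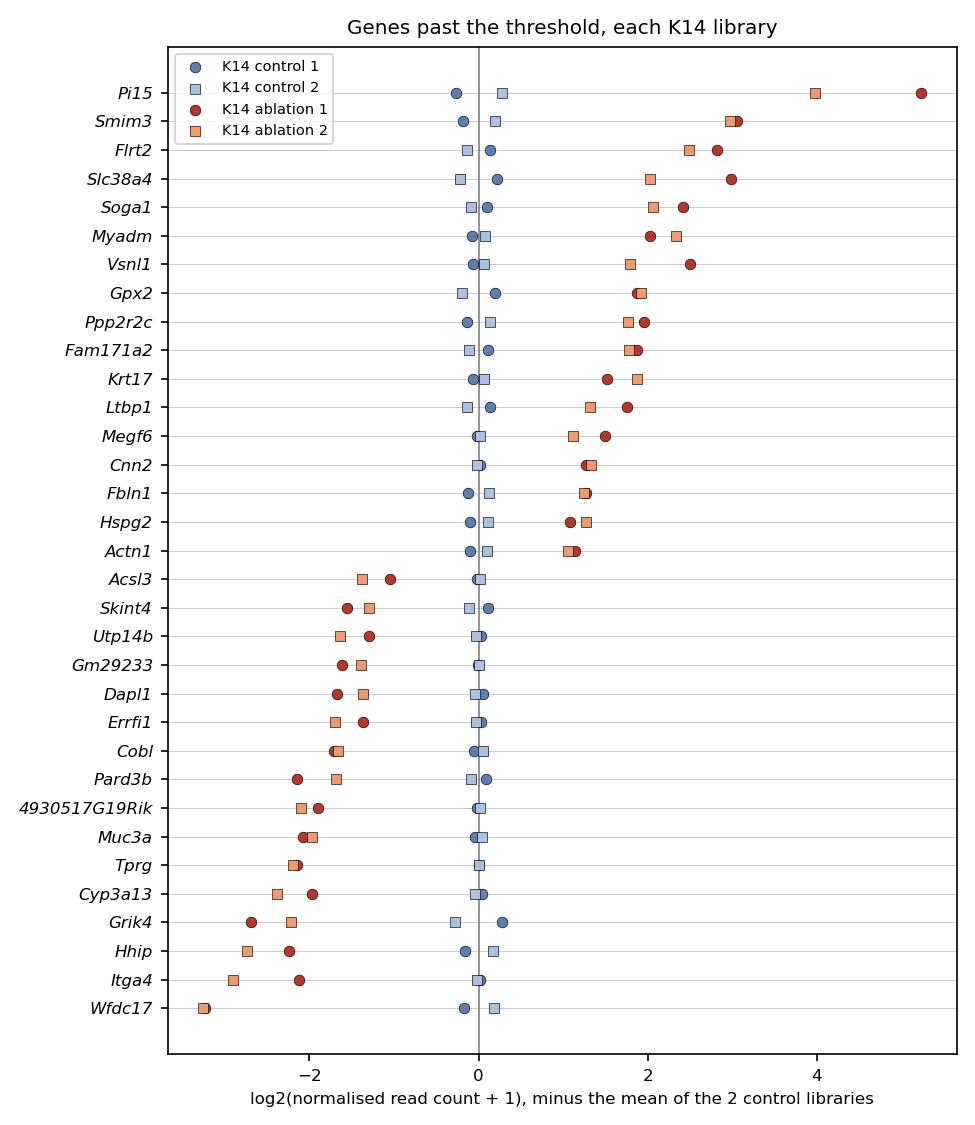
Value of 33 genes past the threshold in each K14 library, on the log2(normalised read count + 1) scale minus the mean of the 2 control libraries; each row is a gene and each point a library. Control points sit near 0, and both ablation points of every gene lie on the same side, from Pi15 at the top (4.61 ± 0.51) to Wfdc17 at the bottom (-3.25 ± 0.33).

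The largest rise was in Pi15 (ENSMUSG00000067780, GRCm38 chromosome 1, 17601901 to 17630939, plus strand), which belongs to the secreted CAP proteins. Its normalised read count was 13.2 and 19.7 in control and 644 and 270.2 in ablation, a log2 difference of 4.61 ± 0.51 (adjusted p = 0.0286, limma) and a 27.8-fold higher mean. Ablation 1 was above ablation 2, and the lower of them was still far above both controls. Flrt2 (ENSMUSG00000047414, GRCm38 chromosome 12, 95692226 to 95785215, plus strand), a membrane protein that binds latrophilin and Unc5 receptors in cell guidance, was at 34.5 and 28.6 in control and 228 and 180.1 in ablation (2.65 ± 0.26, adjusted p = 0.0159). Slc38a4, a neutral amino acid transporter, rose from 98.5 and 72.9 to 679 and 347 (2.50 ± 0.35). Smim3, a small membrane protein, rose from 5.08 and 6.89 to 56.6 and 53.6 (3.02 ± 0.35), with ablation values that were nearly equal.

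Several of the 18 act on the cell surface, the matrix or actin. Myadm, a membrane-raft protein, was at 280.3 and 310.1 in control and 1209 and 1494 in ablation (2.18 ± 0.17, adjusted p = 0.0159). Hspg2, which encodes perlecan, the heparan sulfate proteoglycan of basement membranes, rose from 971 and 1127 to 2211 and 2523 (1.17 ± 0.15). Here ablation 2 was the higher library. Ltbp1, which stores latent TGF-beta in the matrix, rose from 97.5 and 80.7 to 301 and 223 (1.54 ± 0.19), and Fbln1, a matrix glycoprotein, from 123 and 147 to 325 and 321 (1.26 ± 0.16). Megf6, a protein with EGF-like repeats, was at 600.2 and 611 in control and 1713 and 1310.0 in ablation. Of the actin-binding proteins, Cnn2, a calponin, rose from 128 and 125 to 306 and 319 (1.30 ± 0.17). Actn1, the non-muscle alpha-actinin that crosslinks actin at adhesions, rose from 552 and 633 to 1305 and 1233. Both were nearly level between the ablation libraries.

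Krt17, the keratin of activated and appendage epidermis, was at 1901 and 2082 in control and 5722 and 7274 in ablation (1.70 ± 0.17, adjusted p = 0.0159). Soga1 rose from 84.3 and 73.8 to 427 and 332, and Vsnl1, a neuronal calcium sensor, from 37.6 and 41.4 to 229 and 138. Gpx2, a glutathione peroxidase, rose from 13.2 and 9.85 to 44.6 and 46.1. Ppp2r2c, a regulatory subunit of phosphatase 2A, rose from 15.2 and 18.7 to 68.6 and 60.0, and Fam171a2 from 24.4 and 20.7 to 84.9 and 79.3.

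Of the 16 genes that fell, Wfdc17 (ENSMUSG00000069792, GRCm38 chromosome 11, 83703991 to 83706268, plus strand), a secreted whey acidic protein, fell most. It was at 143 and 183 in control and 16.3 and 16.1 in ablation, so it fell by 3.25 ± 0.33 on the log2 scale (adjusted p = 0.0159, limma), to a mean 10.1-fold lower. The ablation libraries differed by less than the control libraries did. Errfi1, which encodes MIG6, the feedback inhibitor of the EGF receptor, was at 3503 and 3341 in control and 1322 and 1057 in ablation (fell by 1.53 ± 0.16, adjusted p = 0.0159). Hhip, the decoy receptor that binds Hedgehog ligands, was at 171 and 215 in control and 39.6 and 27.9 in ablation (fell by 2.49 ± 0.30). Itga4, the alpha-4 integrin subunit, was at 72.1 and 69.9 in control and 15.6 and 8.58 in ablation (fell by 2.52 ± 0.35).

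Another 4 of the genes that fell act in polarity, actin, lipid or differentiation. Pard3b, a homologue of the polarity protein PAR3, fell from 299.6 and 266 to 63.0 and 86.8, and Cobl, an actin nucleator, from 313 and 338 to 98.3 and 102 (fell by 1.69 ± 0.15). Acsl3, an acyl-CoA synthetase, fell from 1123 and 1150.0 to 549.8 and 437. Dapl1, known as a gene of early differentiating epithelium, fell from 975 and 913 to 294 and 366 (fell by 1.52 ± 0.15). In none of these did an ablation library reach the lower control. Cyp3a13, a cytochrome P450, fell from 327 and 309 to 80.7 and 60.0, and Grik4, a kainate receptor subunit, from 168 and 114 to 20.5 and 28.9. Tprg fell from 126 and 126 to 27.6 and 26.8, and Muc3a, a membrane mucin, from 84.3 and 89.6 to 19.8 and 21.4. Skint4, of a family of epidermal immunoglobulin proteins with near-identical copies, was at 231 and 196 in control and 71.5 and 85.8 in ablation; reads could be split between the copies, so its value is uncertain. The last 3 are Utp14b and the non-coding genes Gm29233 and 4930517G19Rik.

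Those 3 genes overlap others, as do 14 of the 34 in all, and the strand setting of the counting is unstated here, so reads of overlapping genes cannot be told apart. Utp14b (1931 and 1857 in control, 772 and 608 in ablation) shares its strand and locus with Acsl3. Gm29233 (1611 and 1625 in control, 529 and 617 in ablation) lies opposite Thbs1, the matrix protein thrombospondin 1. Thbs1 itself was at 21818 and 22435 in control and 7278 and 9339 in ablation, and missed the threshold (-1.42 ± 0.24, adjusted p = 0.0933, limma). 4930517G19Rik (321 and 329.8 in control and 86.3 and 75.0 in ablation) lies opposite Slc6a6, the taurine transporter, which was at 7809.9 and 7876 in control and 4182 and 4198 in ablation (-0.90 ± 0.33). Gpx2 lies opposite Fntb and Fam171a2 opposite Grn, whose difference was 0.64 ± 0.26.

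The promoters of the called genes were searched for the motifs of AP-1 and TEAD, factors that act in epidermal repair, and those with 2 matches or in the EGF receptor inhibitor Errfi1 are printed. RefSeq promoters on GRCm38.p6, from 250 bases before the start to 50 after it, were at hand for 12 of the 18 genes that rose and 13 of the 16 that fell. The AP-1 motif TGANTCA and the TEAD motif GGAATG were searched on both strands. TGANTCA was in 0 of 12 genes that rose, 1 of 13 that fell (Cyp3a13, with 2 matches) and 6.902% of all tested genes with a promoter. GGAATG was in 1 of 12 that rose (Vsnl1, with 2 matches), 3 of 13 that fell (Cobl, Errfi1 and Skint4) and 14.53% of all. Some genes have several starts in the table and a gene was counted if any of its windows matched. Cobl, Errfi1, Skint4 and Vsnl1 each have a second window, with 0 matches. For Vsnl1 this second window (chr12:11436529-11436828) holds the start of the gene in GENCODE M21. The Vsnl1 window with the matches lies inside the gene. Matches are letters in a window, not sites. Capitals mark them in the sequences of Cyp3a13 (chr5:137921570-137921869, minus strand), Errfi1 (chr4:150853546-150853845, plus strand) and Vsnl1 (chr12:11435602-11435901, minus strand), read 5′ to 3′ on the gene's strand. The neighbouring starts of Acsl3 (chr1:78657575-78657874, plus strand) and Utp14b (chr1:78658190-78658489, plus strand), shown because these 2 overlapping genes fell together, hold neither motif.
Cyp3a13: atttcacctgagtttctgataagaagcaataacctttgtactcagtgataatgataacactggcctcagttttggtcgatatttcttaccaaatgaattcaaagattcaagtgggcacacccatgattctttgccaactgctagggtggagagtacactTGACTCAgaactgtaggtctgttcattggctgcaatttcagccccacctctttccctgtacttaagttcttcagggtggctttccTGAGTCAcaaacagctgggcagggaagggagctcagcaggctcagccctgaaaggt
Errfi1: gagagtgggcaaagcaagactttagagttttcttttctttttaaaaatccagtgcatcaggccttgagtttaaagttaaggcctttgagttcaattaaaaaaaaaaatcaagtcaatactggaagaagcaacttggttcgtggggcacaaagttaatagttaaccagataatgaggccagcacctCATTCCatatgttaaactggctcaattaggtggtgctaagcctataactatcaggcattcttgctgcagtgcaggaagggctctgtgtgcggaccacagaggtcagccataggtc
Vsnl1: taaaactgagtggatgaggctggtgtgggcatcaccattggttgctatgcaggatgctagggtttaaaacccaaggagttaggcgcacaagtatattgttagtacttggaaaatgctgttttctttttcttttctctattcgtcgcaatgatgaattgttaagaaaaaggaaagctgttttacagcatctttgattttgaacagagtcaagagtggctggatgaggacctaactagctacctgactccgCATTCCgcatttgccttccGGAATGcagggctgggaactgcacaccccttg
Acsl3: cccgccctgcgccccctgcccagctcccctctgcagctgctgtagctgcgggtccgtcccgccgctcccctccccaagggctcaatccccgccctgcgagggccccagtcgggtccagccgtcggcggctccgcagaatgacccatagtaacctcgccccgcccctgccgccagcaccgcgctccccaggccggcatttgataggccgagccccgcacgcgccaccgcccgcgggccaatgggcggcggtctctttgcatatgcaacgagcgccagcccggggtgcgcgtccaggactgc
Utp14b: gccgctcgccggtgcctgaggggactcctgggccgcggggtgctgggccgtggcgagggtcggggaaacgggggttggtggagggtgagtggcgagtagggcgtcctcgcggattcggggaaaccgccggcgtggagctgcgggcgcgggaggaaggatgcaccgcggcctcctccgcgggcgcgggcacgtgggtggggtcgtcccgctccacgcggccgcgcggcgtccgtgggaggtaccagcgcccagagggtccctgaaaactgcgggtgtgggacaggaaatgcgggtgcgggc

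The rest of each pathway is given from gene lists, by counts of members. Of 61 lists, 12 held a gene past the threshold, and 16 of the 34 called genes were in a list, as were 5.84% of all tested genes. The lists were chosen with earlier results of these data known, so nothing is read from that share. Beside each count stands the share of all tested genes: 6.74% had a higher and 6.09% a lower value at an unadjusted p under 0.05 (limma), and 49.7% had a positive difference. Genes given with values in the paragraphs on lists missed the adjusted threshold unless they are named above as having risen or fallen.

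Of 19 tested genes of wound keratins and activated keratinocytes, 14 had positive differences, Krt17 alone passed the threshold, 6 were higher and 2 lower at an unadjusted p under 0.05, and DESeq2 called 4 higher and 2 lower. The median log2 difference was 0.30. Krt6a was at 2690.3 and 2586 in control and 11408 and 8978 in ablation (1.94 ± 0.33, adjusted p = 0.0933), and Krt16 at 1964 and 1922 in control and 8309.9 and 5935 in ablation (1.85 ± 0.43). Krt6b was at 316 and 321 in control and 2571 and 1366 in ablation. Krt6a and Krt6b, and Krt16 and Krt17, are close copies between which reads could be split, so their single values are uncertain. Against them, Serpinb2, a serine protease inhibitor on the same list, was at 7021 and 6816 in control and 2573 and 962 in ablation (-2.14 ± 0.40).

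Of 16 suprabasal keratins and early differentiation genes, 13 had negative differences, 7 were lower and 1 higher at an unadjusted p under 0.05, with DESeq2 calling 3 and 1, and a median of -0.56. Krt2, a keratin of the upper spinous layer, was at 35716 and 36049 in control and 11463 and 10075 in ablation (-1.74 ± 0.43). Dsg1a, a desmoglein of the upper layers with near-identical copies, was at 11914 and 11832 in control and 7474 and 5360.2 in ablation. Krt1 went against its list, at 15925 and 15135 in control and 42464 and 24209 in ablation (1.05 ± 0.28, adjusted p = 0.221), while its partner Krt10 was lower. The 17 granular layer and cornified envelope genes had 13 negative differences, 3 lower and 0 higher at an unadjusted p under 0.05, and a median of -0.49. The 15 Serpinb inhibitors had 7 lower and 0 higher (median -0.60). The 26 transcription factors of differentiation had 13 positive and 13 negative differences and a median of 0.04. At an unadjusted p under 0.05, 4 were lower, among them Klf4, at 7753 and 8106 in control and 5179 and 3705 in ablation, and Ovol1, at 1582 and 1633 in control and 1046 and 792 in ablation, and 2 were higher, and DESeq2 called 2 lower.

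The 16 genes of basal identity had a median of -0.01. Of them 1 was higher and 0 lower at an unadjusted p under 0.05, and limma, edgeR and DESeq2 each called 0. The 13 integrin subunits on a separate list, which does not hold Itga4, had 2 higher and 2 lower at an unadjusted p under 0.05, with differences from -0.999 to 2.34, and limma, edgeR and DESeq2 each called 0. Among them, Itgb1 was at 3312 and 3259.9 in control and 3440.0 and 3066 in ablation, Itgb4 at 6829.8 and 7497 in control and 7709 and 7289 in ablation. The differences of Itgb1 and Itgb4 were -0.02 ± 0.29 and 0.07 ± 0.29. The value of 2.34 was that of Itga9, at 1.02 and 0 in control and 7.075 and 5.36 in ablation, near the floor of 3 reads. Pdpn, the membrane protein podoplanin, had the largest value of the basal list (1.88 ± 0.56, adjusted p = 0.256), at 24.4 and 19.7 in control and 84.9 and 81.5 in ablation.

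Of 9 tested EGF receptor ligands, 2 were higher and 1 lower at an unadjusted p under 0.05. Ereg, epiregulin, was at 19.3 and 18.7 in control and 314 and 111 in ablation (3.23 ± 0.49, adjusted p = 0.0647), and Tgfa at 79.2 and 79.7 in control and 168 and 122 in ablation. Areg was at 137 and 156 in control and 424 and 163 in ablation, so its higher value came from ablation 1. Hbegf was lower, at 1303 and 1354 in control and 1160.3 and 759 in ablation (-0.50 ± 0.20). The receptor Egfr differed by 0.15 ± 0.15. Of 21 receptors and feedback genes, Errfi1 passed the threshold, 3 were lower and 1 higher at an unadjusted p under 0.05. Dusp1, a MAP kinase phosphatase, was at 10377 and 10762 in control and 5856 and 6251 in ablation (-0.80 ± 0.18), and Spry1, a Sprouty inhibitor, at 513 and 617 in control and 304 and 269 in ablation.

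Most genes that react fast to stimulation, and also to tissue dissociation, had negative differences. Of 22 immediate early and dissociation genes, 20 had negative differences, 9 were lower and 0 higher at an unadjusted p under 0.05, and DESeq2 called 4 lower. In 14, both ablation libraries were below both controls, against 25.7% of all tested genes. Their median was -0.49. Of 11 AP-1 subunits, 5 were lower and 0 higher: Fos was at 17521 and 18685 in control and 12363 and 11009 in ablation (-0.63 ± 0.18), Fosl1 at 1684 and 1888 in control and 1008 and 649 in ablation (-1.14 ± 0.26), and Atf3 at 8933 and 8534 in control and 5009 and 4489.7 in ablation (-0.88 ± 0.15, adjusted p = 0.0867). Jun was at 14635 and 15551 in control and 9889.8 and 13649 in ablation. The labels do not state the time from tissue to lysis of each library, and its part was not tested. Of 20 YAP and TAZ targets, 5 were lower and 1 higher, including the matricellular gene Cyr61, at 6537 and 6947 in control and 3772 and 4828 in ablation (-0.66 ± 0.16).

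**Figure D2:**
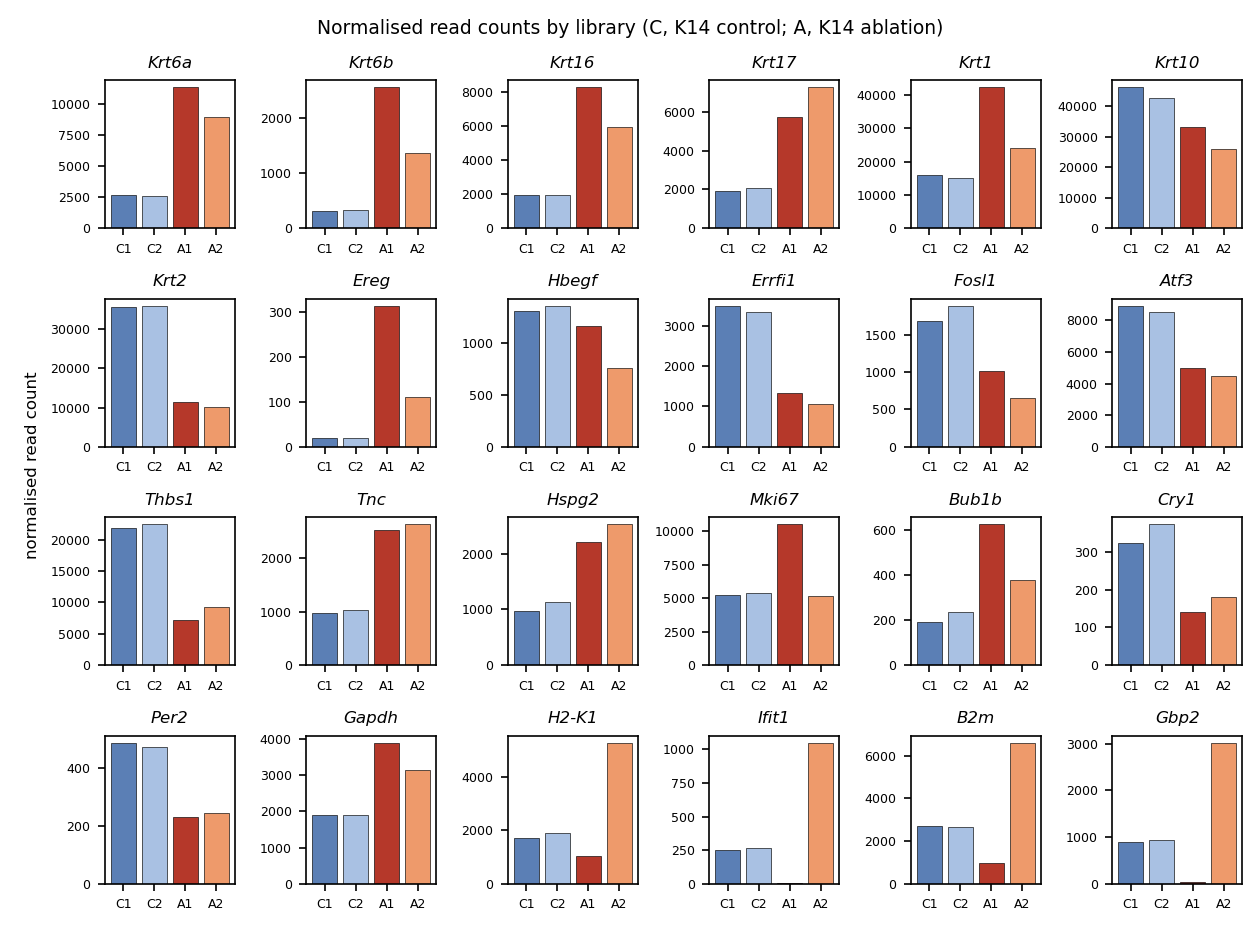
Normalised read counts of 24 genes in the 2 K14 control libraries (C1, C2) and 2 K14 ablation libraries (A1, A2), each bar 1 library on an axis from 0. Krt17, Hspg2 and Errfi1 passed the threshold; Krt6a, Fosl1, Thbs1 and Cry1 differed the same way in both ablation libraries without passing it; and H2-K1, Ifit1, B2m and Gbp2 are low in A1 and high in A2.

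Matrix genes are taken by class. The 24 fibrillar collagen and elastic fibre genes had 2 past the threshold (Ltbp1 and Fbln1), 7 higher and 1 lower at an unadjusted p under 0.05, and a median of 0.43. The 24 basement membrane genes had 1 past the threshold (Hspg2), 5 higher and 3 lower (median -0.17). Their differences ran from -1.42, that of Thbs1, to 1.59. Tnc, tenascin C, was at 971 and 1034 in control and 2524 and 2637 in ablation (1.36 ± 0.33). Lamb2, a laminin chain, was at 405 and 411 in control and 652 and 718 in ablation. Of 22 matrix proteases and inhibitors, 1 was higher and 4 lower; Timp3, a metalloprotease inhibitor, was at 2554 and 2599 in control and 1247 and 1375 in ablation (-0.98 ± 0.16, adjusted p = 0.0857) and Mmp3, stromelysin, at 564 and 610.4 in control and 116 and 85.8 in ablation. Of 39 actin, myosin and contractility genes, 2 passed the threshold as higher (Cnn2 and Actn1) and 1 as lower (Cobl). At an unadjusted p under 0.05 (limma), 7 were higher and 2 lower. Fscn1, the bundling protein fascin, had the largest positive difference (2.25 ± 0.48, adjusted p = 0.153, limma). It was at 90.4 and 94.5 in control and 542 and 363 in ablation. The 14 desmosome genes had 2 higher and 1 lower and a median of -0.12, and the 14 adherens junction genes 1 and 1 with a median of 0.03.

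All 31 mitosis and G2 genes had a positive difference, 11 at an unadjusted p under 0.05. Limma and edgeR called 0 of them and DESeq2 2. The median was 0.71. Taken library by library, the median over the control mean was 1.05 in ablation 1 and 0.37 in ablation 2. Bub1b, a spindle checkpoint kinase, was at 192 and 235 in control and 624 and 376 in ablation (1.19 ± 0.32), but Mki67, the proliferation antigen, was at 5271 and 5361 in control and 10512 and 5137 in ablation, so only ablation 1 lay above the controls. The 30 replication and S phase genes had a median of 0.33, with 2 higher and 0 lower. Cdkn1a, the cell cycle inhibitor p21, was at 1162 and 1142 in control and 791 and 639 in ablation (-0.70 ± 0.19).

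Most genes of energy metabolism had positive differences. Of 28 glycolysis and hypoxia genes, 21 were positive, 8 were higher and 2 lower (median 0.43). Gapdh was at 1898 and 1894 in control and 3893 and 3136 in ablation, and Pkm at 4889 and 4896 in control and 10161 and 7917 in ablation. Slc16a3, the lactate exporter MCT4, was at 131 and 134 in control and 507 and 421 in ablation (1.79 ± 0.57, adjusted p = 0.278). All 29 nuclear-encoded oxidative phosphorylation genes had a positive difference, 3 at an unadjusted p under 0.05 (median 0.28). Most circadian clock genes went the other way. Of 19, 13 were lower and 1 higher at an unadjusted p under 0.05, limma and edgeR called 0 and DESeq2 6 lower, and the median was -0.73. Cry1 was at 324 and 372 in control and 141 and 180.1 in ablation (-1.12 ± 0.21), Per2 at 487 and 474 in control and 229.9 and 245 in ablation, and Npas2, a partner of the clock activator, at 328 and 349 in control and 104 and 117 in ablation (-1.61 ± 0.36, adjusted p = 0.164). The labels do not state the hour of sampling, and its part was not tested.

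**Figure D3:**
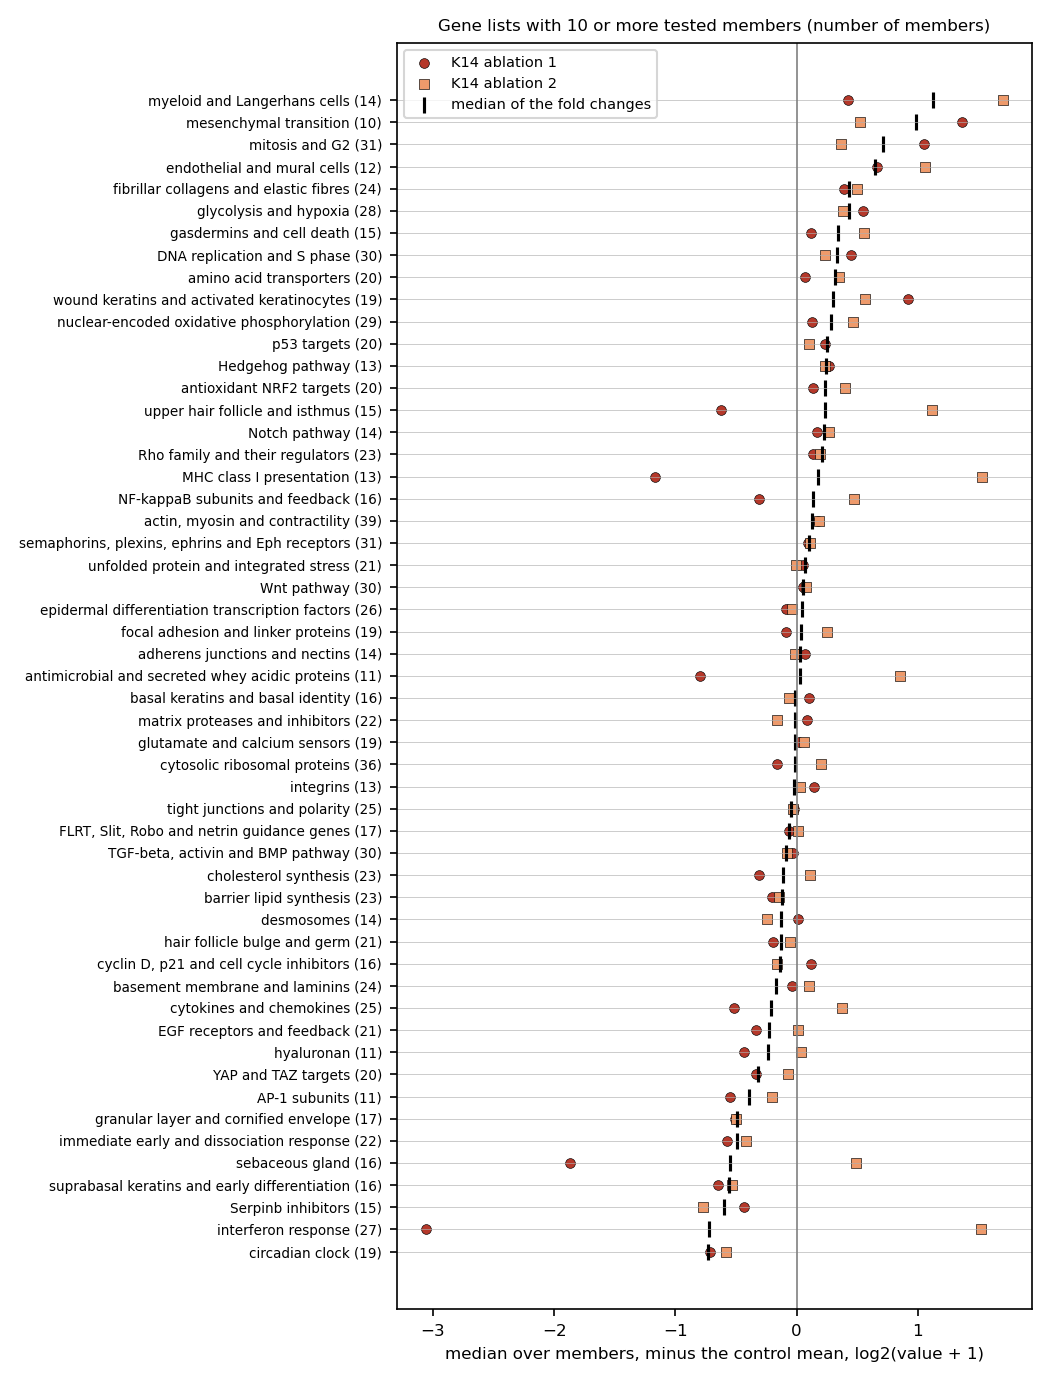
Median over the members of each gene list with 10 or more tested members of log2(normalised read count + 1) minus the control mean, for ablation 1 (circles), ablation 2 (squares) and the fitted difference (bars). Circadian clock genes lie below 0 in both libraries and mitosis genes above it, while the interferon response lies at -3.06 in ablation 1 and 1.52 in ablation 2.

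The Hedgehog, Notch, TGF-beta, Wnt and semaphorin lists had medians from -0.08 to 0.25. Of 13 Hedgehog pathway genes, Hhip passed the threshold and 3 were higher at an unadjusted p under 0.05. Smo, the signal transducer, was at 674 and 719.7 in control and 982 and 968 in ablation (0.48 ± 0.15). Of 14 Notch pathway genes, 3 were higher and 3 lower, and Hes1, a Notch target, was at 1660.5 and 1855 in control and 790.3 and 984 in ablation (-0.99 ± 0.16, adjusted p = 0.0741). Of 30 genes of the TGF-beta, activin and BMP pathway, 3 were higher, including Ltbp1 past the threshold, and 5 lower. The 30 Wnt pathway genes had 1 higher and 1 lower. Of 31 semaphorins, plexins, ephrins and Eph receptors, 6 were higher and 1 lower, with Plxnb2 at 1971 and 2176 in control and 3157 and 2967 in ablation and Sema3d, a secreted semaphorin, at 1127 and 1183 in control and 590.1 and 301 in ablation.

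Some genes of other cell types were higher in the ablation libraries at low values. For 14 tested myeloid and Langerhans cell markers, 5 were higher and 0 lower at an unadjusted p under 0.05, and the sum over the whole list was 899 and 1086 in control and 1103 and 2539.7 in ablation. Ptprc, the leukocyte antigen CD45, was at 4.06 and 2.95 in control and 35.4 and 19.3 in ablation (2.60 ± 0.54, adjusted p = 0.143), and Itgax, CD11c, at 1.02 and 0 in control and 33.3 and 13.9 in ablation. Cd207, langerin, was at 0 and 4.92 in control and 5.66 and 5.36 in ablation, and Cd74, which chaperones MHC class II, at 176 and 268 in control and 144 and 944 in ablation, so the sum followed ablation 2.

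Of 12 tested endothelial and mural markers 4, and of 6 fibroblast markers 2, were higher and 0 lower. The sum of the endothelial list was 782 and 849.7 in control and 809 and 1137 in ablation, and that of fibroblasts 755 and 793 in control and 671 and 812 in ablation. Col1a1, the fibrillar collagen of fibroblasts, was at 12.2 and 18.7 in control and 46.0 and 34.3 in ablation. Mfap5 of the fibroblast list and Xcl1 of the T cell list were at 0 in all 4 libraries. Kdr, an endothelial receptor, was at 0 in both controls and 9.90 and 3.22 in ablation, and Pecam1 was at 67.0 and 49.2 in control and 66.5 and 18.2 in ablation. The summed melanocyte list was 419 and 393 in control and 323 and 344 in ablation. The summed Merkel cell list was 27.4 and 41.4 in control and 91.3 and 79.3 in ablation, and Krt18, a keratin of simple epithelia, held 43.9 and 41.8 of the latter. Of 10 mesenchymal transition genes, 5 were higher at an unadjusted p under 0.05, with Vim, which other cell types also express, at 38.6 and 54.2 in control and 173 and 143 in ablation (1.76 ± 0.25, adjusted p = 0.0566), and Snai2 at 547 and 597 in control and 1022 and 754 in ablation. The part that RNA of other cell types plays in the values of Vim, Ptprc and the matrix genes was not tested.

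The ablation libraries took opposite sides of the controls for whole gene families. All 27 tested interferon response genes and all 13 MHC class I genes were below both controls in ablation 1 and above both in ablation 2, an arrangement found in 11.7% of tested genes (the reverse was found in 9.23%). Gbp2, a guanylate-binding protein, was at 899 and 949 in control and at 31.8 and 3018 in ablation 1 and 2. Ifit1 was at 249 and 269 in control and 9.90 and 1047 in ablation. B2m, the light chain of MHC class I, was at 2726 and 2662 in control and 957 and 6589.9 in ablation, and its heavy chain H2-K1, which has near-identical copies, at 1718 and 1898 in control and 1040.1 and 5259 in ablation. Group differences for these genes are therefore averages of opposite values; 0 had an unadjusted p under 0.05, and limma, edgeR and DESeq2 each called 0. Of the 441 genes over 2-fold apart between the ablation libraries, 31 are in these lists.

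Sebaceous and upper follicle genes divided the libraries in the same order. Of 16 sebaceous gland genes, 14 were below both controls in ablation 1 and above both in ablation 2; the median over the control mean was -1.87 in ablation 1 and 0.49 in ablation 2. Scd1, a fatty acid desaturase, was at 9686 and 9813 in control and 2412 and 12921 in ablation, and Pparg, the sebocyte regulator, at 206 and 193 in control and 22.6 and 366 in ablation. Of 15 upper hair follicle genes, 7 showed this arrangement, among them Lrig1, a marker of upper follicle stem cells and a feedback inhibitor of the EGF receptor, at 585 and 656 in control and 357 and 1486 in ablation. The arrangement was also found in 24 of 36 cytosolic ribosomal protein genes, with smaller medians of -0.16 in ablation 1 and 0.20 in ablation 2. It was found in 10 of 23 cholesterol synthesis genes. The part that the makeup of the sorted cells plays in these values was not tested.

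**Figure D4:**
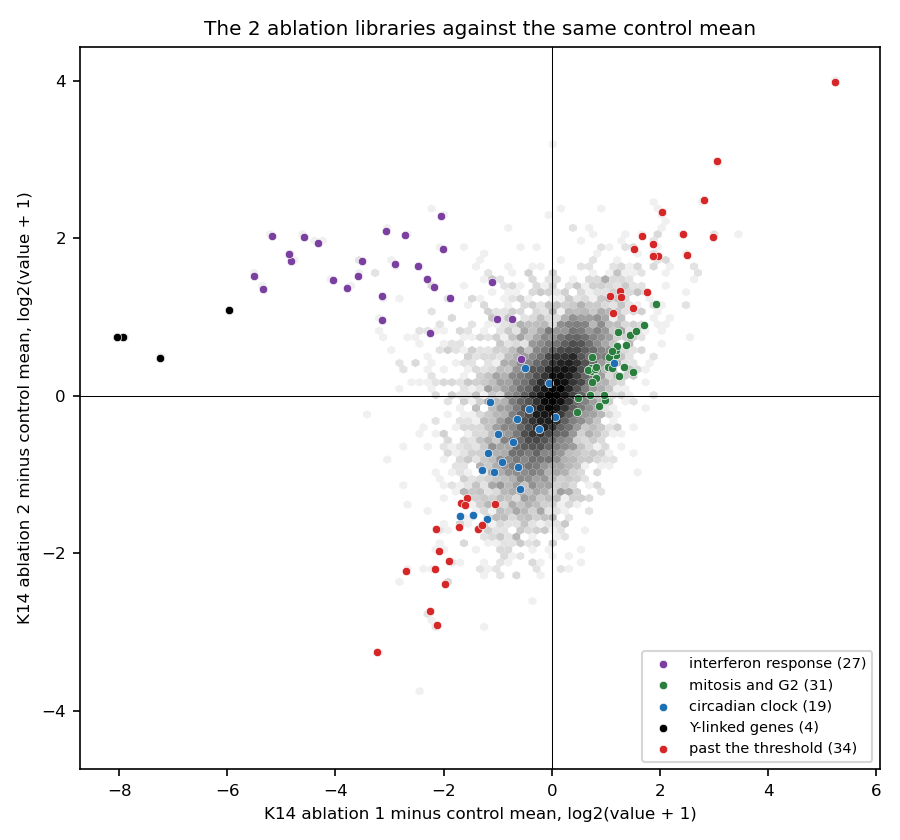
Each tested gene's value in ablation 1 (horizontal) and ablation 2 (vertical), as log2(normalised read count + 1) minus the mean of the control libraries; grey shading counts all genes and colours mark 5 sets. The 34 genes past the threshold lie in the quadrants where the libraries agree, and all 27 interferon response genes in the quadrant with ablation 1 below and ablation 2 above the controls.

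For the 34 genes the effect in Lrig1 ablation against Lrig1 control can be set beside the effect in K14. Of the 18 that rose in K14, 13 had a positive difference in Lrig1, 9 of them past the threshold, and 2 of the other 5 fell. Of the 16 that fell, 11 had a negative difference in Lrig1, 8 of them past the threshold. In Lrig1, 139 of 18140 tested genes passed it as higher and 598 as lower, 4.06% in either direction. The sign matched in 51.0% of all genes with a positive and 54.1% of those with a negative K14 difference. These 2 effects have no library in common but share 1 estimate of each gene's spread, and the 34 were chosen on K14.

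The difference between the effects passed the threshold (limma contrast, 0.198% of tested genes) for 6 of the 34. Krt17 differed by -0.78 ± 0.17 in Lrig1 against 1.70 ± 0.17 in K14 (difference -2.48 ± 0.24, adjusted p = 0.0384). Gpx2 differed by -1.26 ± 0.24 in Lrig1, Fam171a2 by -0.65 ± 0.23 and Cnn2 by -0.46 ± 0.17, all of which rose in K14. The non-coding genes Gm29233 and 4930517G19Rik, which fell in K14, differed by 0.81 ± 0.19 and 0.30 ± 0.20 in Lrig1. Megf6 (1.23 ± 0.16 in Lrig1), Fbln1 (1.16 ± 0.16) and Cyp3a13 (-2.09 ± 0.21) had values near those in K14, which were 1.30 ± 0.16, 1.26 ± 0.16 and -2.18 ± 0.21. For the other 28 genes the difference missed the threshold, which does not show that the effects were alike.

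**Figure D5:**
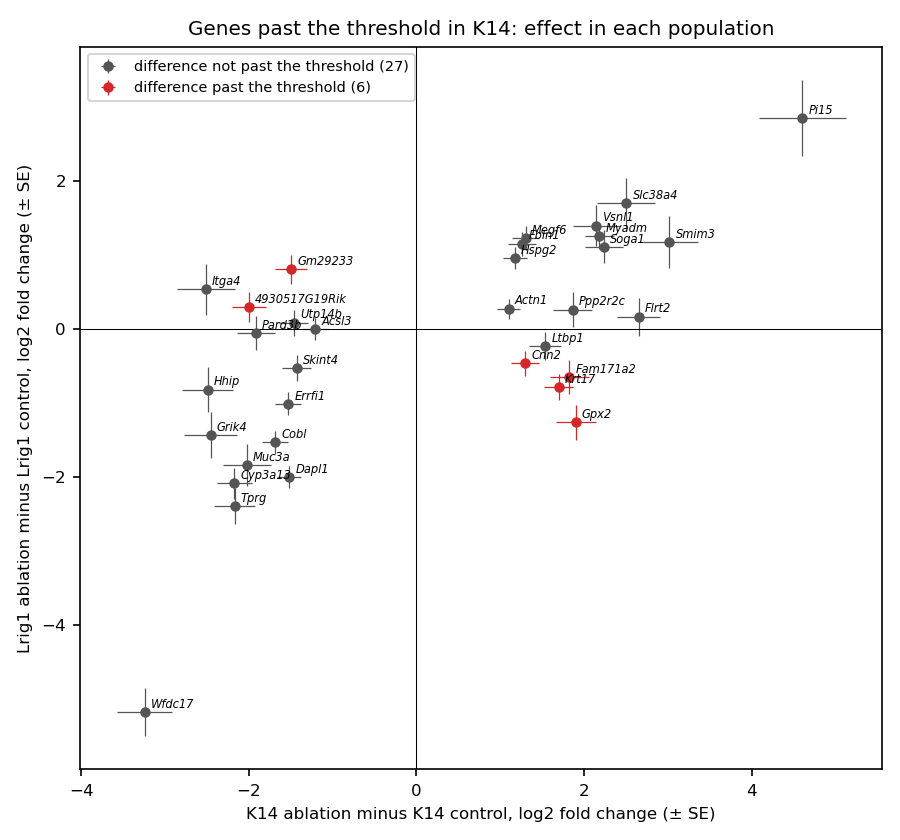
Log2 difference, ablation minus control, in K14 (horizontal) and Lrig1 (vertical) for 33 genes past the threshold in K14, with bars of 1 SE. The 6 genes in red, among them Krt17 and Gpx2 in the lower right, differed between K14 and Lrig1 past the threshold.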

How the data were processed

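RNA sequencing of polyA RNA from sorted epidermal cells was analysed in 8 libraries, 2 for each of 4 labelled groups; the comparison used 2 K14 control and 2 K14 ablation libraries. Per the submitters' processing notes, the tools were HTSeq (version 0.11.1), STAR, Trimmomatic and Picard, with GRCm38 (mm10) as the genome; settings and strand of counting are not stated there. The authors deposited a normalised signal per gene for 32574 genes. Within a tolerance of 0.001, 100% of values were whole multiples of 1 step per library, that is reads divided by a size factor. Column names differ from titles for the ablation libraries, which were matched as the only ones left in their group; 0 value columns were unused.

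Values were tested as log2(value + 1) with limma 3.58.1 (R 4.3.3, variance trend, 4 group means over 8 libraries, 4 residual degrees of freedom). A gene was tested where 2 or more libraries held at least 1e-06 of their total, and Benjamini-Hochberg adjustment ran over all 18140 tested genes at 0.05. On this scale the change of low genes is understated. A chi-square test found replicates to differ by more than sampling noise, at 1.57 per gene in K14 control and 27.7 in K14 ablation. In Lrig1 control and ablation it was 2.58 and 39.5. The main fit nevertheless used 1 spread for each gene over all groups. Each library was counted as 1, though this test cannot show that libraries come from separate mice. Recovered reads were also tested with edgeR 4.0.16 and DESeq2 1.42.0, which called 32 and 221 genes. The scripts were tested on simulated data.

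Genes named are those past the threshold (1 is not reported here), up to 3 per list with the smallest unadjusted p under 0.05, a fixed set of markers, the 5 genes just outside the threshold and the 6 genes farthest apart between the ablation libraries in each direction. Tnc, Gapdh, Pkm, Fscn1, Per2, Npas2, Gbp2, Ifit1, B2m, H2-K1, Scd1, Pparg, Cd74 Mfap5, Xcl1 and the overlapping genes Slc6a6, Grn and Fntb were named after their values were seen. The comparison and the lists were chosen with earlier results of these data known. The floor of 3 reads covers counting error only, while the SE comes from the spread between libraries within the groups. Gene coordinates are from GENCODE M21 (GRCm38) and promoters from RefSeq (GRCm38.p6).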

Additional observations from a re-analysis of the deposited data

Results flagged for a closer look

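The ablation effect differed between the K14 and Lrig1 libraries past the threshold (limma contrast in the fit of all 8 libraries) for 9 of the genes named, and each is given as Lrig1 minus K14 on the log2 scale. In 7 of them the Lrig1 effect was the lower. Vim, an intermediate filament gene, differed by -4.44 ± 0.36 (adjusted p = 0.0272), Emcn, an endothelial sialomucin, by -6.23 ± 0.82 and Gpx2 by -3.16 ± 0.34. Emcn was at 0 and 0.985 in K14 control and 3.54 and 3.22 in K14 ablation, near the floor of 3 reads. The endothelial list had a median of 0.65 in K14 and -3.53 in Lrig1, and the myeloid list 1.13 and -2.29. Medians of the fibroblast list (6 tested genes) were 0.54 and -0.23. Those of the T cell list, which rest on only 3 tested genes, were 0.77 and 0.60. The part that RNA of other cell types in the Lrig1 libraries plays in the contrasts of Vim and Emcn was not tested. Krt17 differed by -2.48 ± 0.24, Fam171a2 by -2.47 ± 0.33, Elovl4, an elongase of barrier lipids, by -1.96 ± 0.23 and Cnn2 by -1.76 ± 0.24. For Elovl4 both effects were negative, -0.57 ± 0.17 in K14 and -2.53 ± 0.17 in Lrig1. The Lrig1 effect was the higher for Gm29233 (2.31 ± 0.27) and 4930517G19Rik (2.30 ± 0.29). With 2 libraries in each group, no group was large enough to be searched for single libraries that stand apart.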

How the results depend on the processing

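The count of 34 genes became 221 with DESeq2, 7 with limma-voom, 477 with array weights, and 0 with the K14 libraries alone (3452 at an unadjusted p under 0.05, limma) or without a variance trend (2147 likewise). TMM scaling (32), edgeR (32), no filter (31), a stricter filter (30) and pseudocounts of 0.5 (34) and 5 (35) stayed within 1.5 times. Leaving out 1 library at a time gave 0 to 740; where that left 1 library in a group, it was assumed to vary like the other groups. At an unadjusted p under 0.05 the fits with a count of 0 without a control library gave 835 to 1678. The causes were not tested. All 34 kept their sign in every setting that tested them. Leaving out a library could not have reversed it, since their ablation and control values do not overlap. With edgeR 32 and with voom 7 remained past the threshold. The labels give the groups the same replicate numbers, but differences between replicates correlated at only 0.08 between K14 control and K14 ablation, so the numbers are not shown to pair libraries; with a replicate block within each population 2 genes were called.

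The sign reversed for Itgb1 with TMM (0.0078), and for B2m, Ifit1 and Gbp2 with edgeR (0.49, 1.03 and 0.73) and DESeq2 (0.48, 1.03 and 0.72). Leaving out 1 library also reversed signs, with ranges of -0.000324 to 0.13 for Itgb4, -0.049 to 0.98 for Mki67, -1.49 to 1.29 for B2m, -2.01 to 0.41 for Scd1, -3.08 to 0.87 for Pparg, -4.57 to 2.01 for Ifit1, -4.82 to 1.71 for Gbp2, -0.59 to 2.12 for Cd74, -0.80 to 1.54 for H2-K1, -0.79 to 1.26 for Lrig1, -0.0998 to 0.066 for Itgb1, -0.33 to 0.20 for Itga6 and -1.60 to 0.21 for Pecam1.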

Other observations

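The genes farthest apart between the ablation libraries, among those with a mean value of at least 100, add an interferon-induced pair to the Y-linked genes. Gbp4, a guanylate-binding protein, was at 130.0 and 163 in control and 0.708 and 395 in ablation 1 and 2, and Ifi47, an interferon-inducible GTPase, at 78.2 and 81.7 in control and 1.42 and 346 in ablation. In the other direction, Pmaip1, the p53 target Noxa, was at 168 and 162 in control and 414 and 108 in ablation, and Camk1d, a calcium-dependent kinase, at 95.5 and 132 in control and 179.7 and 46.1 in ablation. Mettl7a3 was at 308 and 278 in control and 183 and 38.6 in ablation.

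Antioxidant genes of the NRF2 pathway had 6 of 20 tested members higher and 1 lower at an unadjusted p under 0.05 (limma). Of these 20, limma and edgeR called 0 and DESeq2 1, and the median log2 difference was 0.24. The list does not hold the glutathione peroxidase gene Gpx2, which rose past the threshold. Nqo1, a quinone reductase, was at 65.0 and 51.2 in control and 122 and 137 in ablation (1.15 ± 0.22, adjusted p = 0.121, limma), and Ephx1, an epoxide hydrolase, at 229 and 258 in control and 399 and 429.9 in ablation. Slc7a11, the cystine transporter, was lower, at 134 and 125 in control and 83.5 and 75.0 in ablation (-0.70 ± 0.20). Gasdermin and cell death genes had 2 of 15 higher and 0 lower, with Gsdmc at 23.4 and 16.7 in control and 97.6 and 37.5 in ablation.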
